A study of Homo sapiens with 30 samples.

Results

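The stretch of chromosome 13 from 60 to 70 Mb (hg19), which holds the protocadherin gene PCDH9, carried 341 of the 70565 regions in 8 lists of chromatin immunoprecipitation with sequencing (ChIP-seq) peaks. A region was counted as a member when its start lay between 60000000 and 70000000 on chromosome 13, after rows of a list with 1 bp or more in common had been joined. Of the members, 335 of 67105 regions came from the 4 lists of cells without auxin and 6 of 3460 from the 4 lists of cells with auxin. PCDH9 was taken as the span from 66.88 to 67.80 Mb, 0.92 Mb or 9.20% of the domain, and a region was inside the gene when its start lay in that span. Both bounds are rounded, so distances from an end of PCDH9 are from this span and not from an annotated transcription start. The domain was picked by position with earlier results of these data known, and each list has no replicate, so every value here is a description and no difference was tested.

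The cells were HEK293T, an established human embryonic kidney line, with an edited CTCF gene and with 2 plasmids brought in by transfection, pcDNA3.1-ScFv-miniIAA7-mEGFP and pcDNA3.1-AtAFB2-mCherry, which carry an auxin degron and an auxin receptor and went into both conditions. The medium was then changed to one with 0.5 mM indole-3-acetic acid (IAA, an auxin) or one lacking it, for 72 h, although 1 label names the cells lacking it as DMSO. ChIP was done for CTCF, MBD3, TET1 and TET2 in each condition, with 3 samples in each of 10 groups, inputs included, and a deposited list pools the 3 samples of its group. The machinery came in by transient transfection, so cells that took up neither plasmid, or only 1 of them, may be among those measured. The sources used here do not give the share of such cells.

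CTCF is a zinc-finger protein that binds a long sequence motif, stops cohesin and so anchors chromatin loops. MBD3 belongs to NuRD, a complex that moves nucleosomes and removes acetyl groups from histones. TET1 and TET2 are dioxygenases that oxidise 5-methylcytosine, the first step of active DNA demethylation. PCDH9 encodes a non-clustered protocadherin, a cell adhesion protein of the cadherin superfamily known mainly from the nervous system, and is a very long gene made mostly of introns. In the RefSeq table of GRCh38.p14, used here for names and order only, the next protein-coding gene on the higher side is KLHL1, and PCDH9 is on the minus strand, so its transcription start is at the higher end of the span.

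Without IAA, MBD3 and TET2 regions were denser in the domain than in any other 10 Mb window of chromosomes 1 to 22 and X, while CTCF regions were slightly fewer than in the median window. The domain held 90 MBD3 regions, 9.00 per Mb, where the median of 309 windows was 19.0 regions, a ratio of 4.74. The next window, with 69 MBD3 regions, was the neighbouring stretch of chromosome 13 from 70 to 80 Mb. TET2 had 24 regions in the domain, 2.40 per Mb, against a median of 3.00 regions per window and 20 in the next window, at 150 to 160 Mb of chromosome 1. TET1 had 102 regions, 10.2 per Mb, and ranked 26 among the windows, with a median of 46 and a highest count of 227 at 40 to 50 Mb of chromosome 19. CTCF had 119 regions, 11.9 per Mb, and ranked 171, against a median of 126. The windows lie on a fixed grid, and the last window of each chromosome is a partial one.

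**Figure D1:**
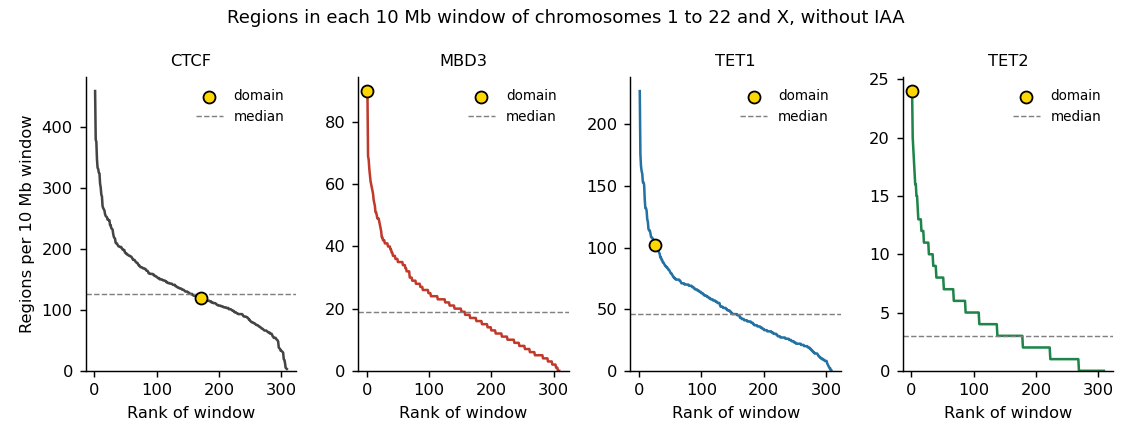
Number of regions (vertical axis, from 0) in each of 309 windows of 10 Mb, ordered by rank (horizontal axis), for each antibody without IAA; the gold point is the chromosome 13 domain and the dashed line the median window. The domain has the highest count for MBD3 (90) and TET2 (24), ranks 26 for TET1 (102) and lies just under the median for CTCF (119).

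As a share of its own list, the domain took 1.81% of the TET2 regions and 1.36% of the MBD3 regions, but 0.628% of the TET1 and 0.277% of the CTCF regions. The ranks moved with the threshold on strength. With a minimum −log10 q of 5 the domain ranked 12 for MBD3, 23 for TET2, 180 for TET1 and 242 for CTCF. With a minimum fold enrichment of 5 it ranked 1 for MBD3, 3 for TET2, 160 for TET1 and 237 for CTCF. A −log10 q of 5 or more was reached by 32.2% of the MBD3 regions of the domain (52.0% of the list), 16.7% of the TET2 regions (34.9%), 32.4% of the TET1 regions (85.9%) and 68.9% of the CTCF regions (92.9%). Sequencing depth is not known for any list.

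Within the domain the regions were not spread evenly: the 1 Mb bin at 67 to 68 Mb stood above the other 9 for each antibody. It held 40 MBD3 regions, where the other bins held 0 to 12 with a median of 5.00. For TET1 it held 36, against 2 to 16 (median 6.0), for TET2 9, against 0 to 4 (median 2.00), and for CTCF 27, against 5 to 14 (median 10.0). Over 2875 bins of 1 Mb in the genome, this bin had the highest MBD3 count, and the next, at 82 to 83 Mb of chromosome 9, had 20. It shared the highest TET2 count with that same bin of chromosome 9, ranked 3 for TET1 behind a highest count of 38, and ranked 273 for CTCF. These 1 Mb ranks were not taken under a stricter threshold. A minimum −log10 q of 5 left 9 MBD3, 6 TET1 and 1 TET2 regions in PCDH9. The edges of the domain held no MBD3 or TET2 region: all 90 MBD3 and all 24 TET2 regions lay between 62 and 69 Mb, as did 93 of the 102 TET1 regions. CTCF continued into the edges, with 25 regions in the other 3 Mb.

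**Figure D2:**
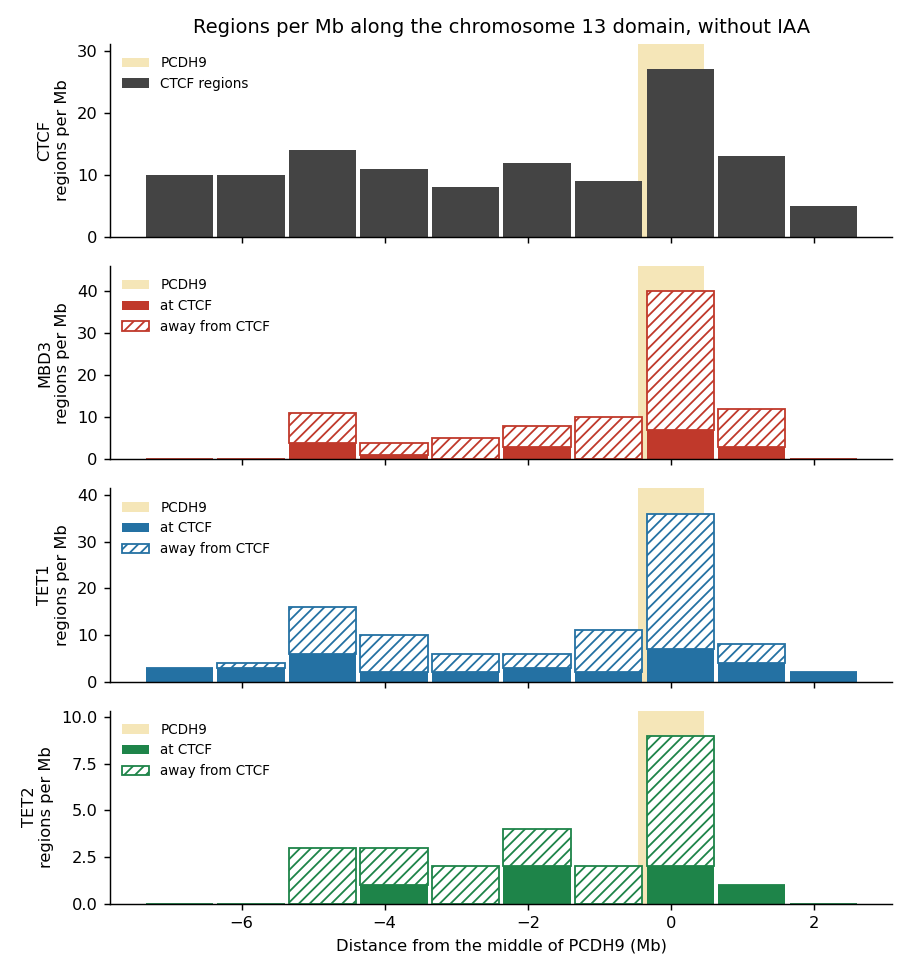
Regions per Mb (vertical axis, from 0, its own scale for each antibody) in the 10 bins of 1 Mb that make up the domain, by distance from the middle of PCDH9 (horizontal axis, Mb), without IAA; filled bars are regions at CTCF, hatched bars regions away from it, and the shaded band is PCDH9. The bin over most of PCDH9 holds 27 CTCF, 40 MBD3, 36 TET1 and 9 TET2 regions, and most of the MBD3, TET1 and TET2 bar is hatched.

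PCDH9 itself held 37 MBD3, 33 TET1, 23 CTCF and 9 TET2 regions. For MBD3 this was 40.2 per Mb inside the gene and 5.84 per Mb in the rest of the domain, a ratio of 6.89, so that 41.1% of the domain's MBD3 regions lay in 9.20% of its length. The ratio was 5.92 for TET2 (9.78 and 1.65 per Mb), 4.72 for TET1 (35.9 and 7.6 per Mb) and 2.36 for CTCF (25 and 10.6 per Mb). With a minimum −log10 q of 5 the ratios were 4.44 for MBD3, 3.29 for TET2 (1 region inside and 3 outside), 2.19 for TET1 and 1.53 for CTCF. At that setting MBD3, TET1 and CTCF stayed denser inside the gene than outside it, while 1 TET2 region inside is too few to say. With a minimum fold of 5 the ratios were 5.59 for MBD3, 1.41 for TET2 (1 and 7 regions), 2.92 for TET1 and 1.53 for CTCF.

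MBD3, TET1 and TET2 regions leaned toward the side of PCDH9 with the higher coordinates, that of its transcription start. All 9 TET2 regions lay above the middle of the gene, as did 26 of the 33 TET1 regions and 25 of the 37 MBD3 regions. CTCF was more even, with 10 regions below the middle and 13 above it. Counted from the lower end, the first MBD3 region of the gene lay 75.6 kb in, the first CTCF region 155 kb and the first TET2 region 529 kb, while TET1 began at 66981158, between those of MBD3 and CTCF. That first CTCF region, at 67034857 to 67035038, was weak at 3.26-fold, and the next, at 67066688 to 67066956, stood at 18.5-fold. Below the lower end the nearest CTCF region, at 66627837 to 66628101 (4.04-fold), was 252 kb away.

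The higher end of PCDH9, taken at the rounded 67.80 Mb, carried a tight group of regions. On which side of the annotated end the regions nearest to it lie was not settled. A CTCF region at 67798316 to 67798740, 1.68 kb inside the end, had a fold of 34.2 and a −log10 q of 368, and both MBD3 (67798405 to 67798619, 5.66-fold) and TET1 (67798284 to 67798643, 10.4-fold) were called at it. This TET1 region was the strongest of the 33 inside the gene, and it ranked 3161 of 16246 by fold. A little farther into the gene, MBD3 (67797209 to 67797599), TET1 (67797138 to 67797437) and TET2 (67797253 to 67797396) were called together without CTCF, at 5.41-, 3.33- and 4.29-fold. The TET1 call there was marginal, with a −log10 q of 1.33 (percentile 0.102 of its list by −log10 q). A weak CTCF region at 67795877 to 67796118 (3.66-fold) carried MBD3. Just outside the end, 12.3 kb beyond it, lay the second strongest CTCF region of the domain, at 67812252 to 67812768, with 51.2-fold enrichment, and MBD3 and TET1 (15.4-fold) were called there too. In the interior, the strongest CTCF region lay at 67263241 to 67264068, at 36.9-fold, with MBD3 and TET1.

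**Figure D3:**
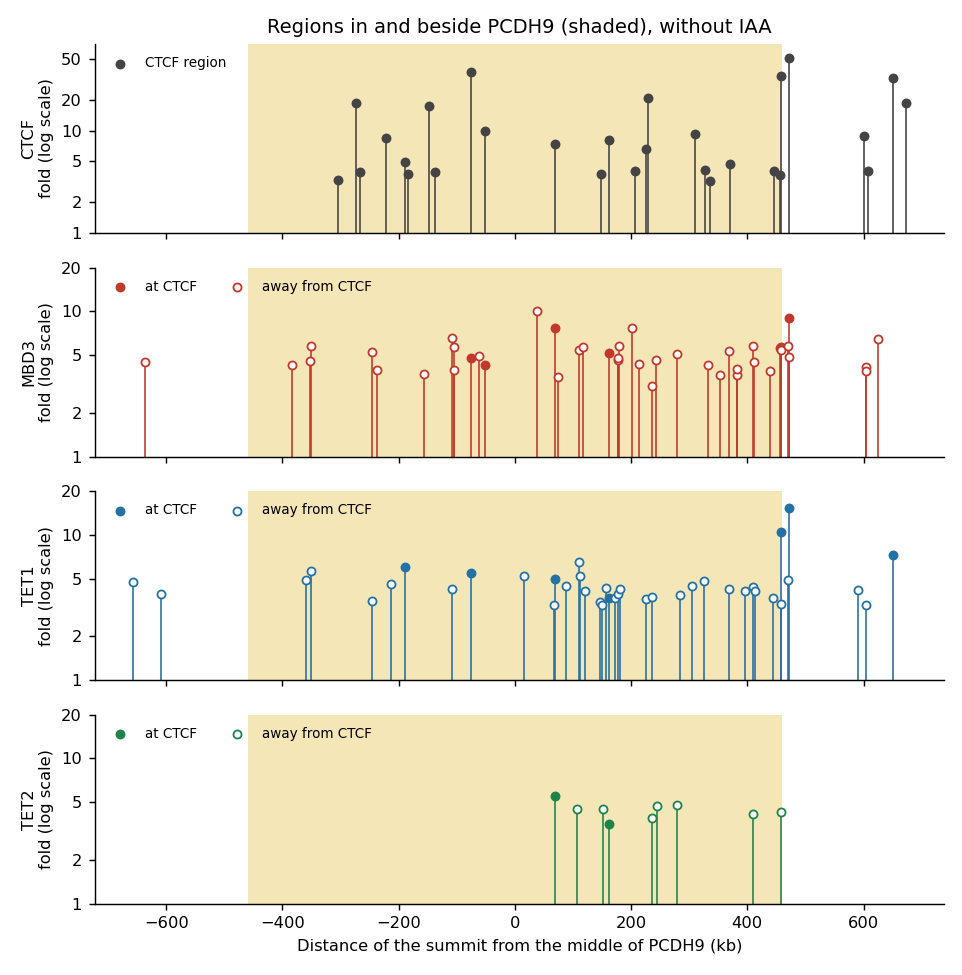
Each region in PCDH9 (shaded) and close to either end of it, by the distance of its summit from the middle of the gene (horizontal axis, kb) and its fold enrichment within its own list (vertical axis, log scale), without IAA; filled points are at CTCF and open points away from it. Open MBD3 and TET1 points lie along the gene, up to 10.1- and 6.47-fold, all TET2 points lie above the middle, and the strongest TET1 point inside the gene (10.4-fold) sits at its higher end.

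Most MBD3 and TET1 regions of the domain lay away from CTCF, that is, no base of theirs was in a region of the CTCF list without IAA. Of the 90 MBD3 regions, 72 were away, or 80.0% (Wilson 95% interval 70.6% to 87.0%, counting error over regions only), beside 43.6% of the whole list (56.4% of which was at CTCF). For TET1 it was 68 of 102, or 66.7% (57.1% to 75.1%), beside 8.91% of a list with 91.1% at CTCF. For TET2 it was 18 of 24, or 75% (55.1% to 88.0%), beside 64.2% of a list with 35.8% at CTCF, so the interval of TET2 takes in the value of its list while those of MBD3 and TET1 lie above theirs. The direction for TET2 turned where a minimum −log10 q of 5 (50% of 4 regions, beside 74.5% of the list) or a minimum fold of 5 (50% of 8, beside 81.6%) was set on both lists, and where sharing needed 50% of both regions (75%, beside 79.6%). It also turned with these minimums on the TET2 list alone (25% beside 65.7%, and 37.5% beside 68.3%). Put the other way, this 10 Mb held 4.70% of all 1448 TET1 regions away from CTCF but 0.230% of the 14798 at CTCF. For MBD3 the shares were 2.50% and 0.483%, and for TET2 2.12% and 1.26%. No other 10 Mb window held as many MBD3, TET1 or TET2 regions away from CTCF: the next highest counts were 44, 34 and 15. With a minimum −log10 q of 5 on all lists, 17 MBD3, 7 TET1 and 2 TET2 regions of the domain were away from CTCF. The windows were not ranked again by regions away from CTCF at that setting.

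Inside PCDH9 the TET1 regions were away from CTCF in 28 of 33 cases, or 84.8% (69.1% to 93.3%), and in the rest of the domain in 40 of 69, or 58.0% (46.2% to 68.9%). These intervals, from 69.1% inside and up to 68.9% outside, cover counting error over regions only, and the difference was not tested. For MBD3 the shares were 83.8% (68.9% to 92.3%) inside and 77.4% (64.5% to 86.5%) outside, and for TET2 7 of 9 and 11 of 15, each pair with overlapping intervals. The TET1 share moved most with the threshold. With a minimum −log10 q of 5 on the TET1 list alone, 5 of 33 TET1 regions of the domain were away from CTCF, or 15.2% (6.65% to 30.9%), beside 2.71% of the list at that setting. With the minimum on the CTCF list as well, 7 of 33 were away, or 21.2%, beside 3.29%. For MBD3 the values were 15 of 29, or 51.7% (34.4% to 68.6%), beside 24%, with its own list cut, and 17 of 29, or 58.6%, beside 26.3%, with both.

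**Figure D4:**
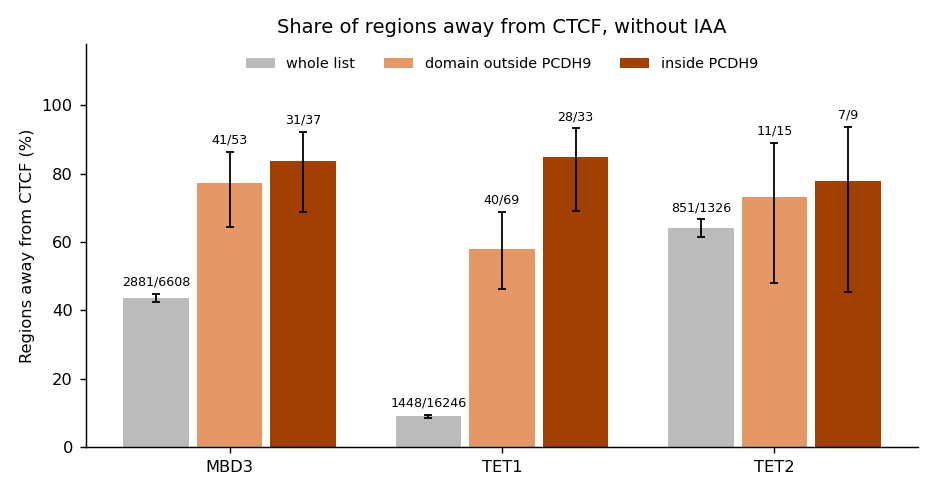
Percent of MBD3, TET1 and TET2 regions that lie away from CTCF (vertical axis) in the whole list, in the domain outside PCDH9 and inside PCDH9, without IAA; error bars are Wilson 95% intervals and the fractions above the bars give the counts. TET1 shows the widest step, from 8.91% in the whole list to 58.0% and 84.8%, and the 3 TET2 bars overlap within their intervals.

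The strongest regions away from CTCF differed between the antibodies in how strong they were. For MBD3 they lay at 67377183 to 67377584 in PCDH9 (10.1-fold, rank 111 of 6608), at 68932438 to 68932793 (8.42-fold, rank 467, with TET1) and at 67541010 to 67541223 in PCDH9 (7.69-fold, rank 848). For TET2 they lay outside the gene, at 63217175 to 63217503 (7.42-fold, rank 104 of 1326), 62985047 to 62985221 (5.41-fold) and 65272905 to 65273048 (5.38-fold), with none of the other antibodies. For TET1 they were weak within the list: 67449439 to 67449792 in PCDH9 (6.47-fold) ranked 9915 of 16246, followed by 66988367 to 66988778 in PCDH9 (5.63-fold) and 62874264 to 62874490 (5.51-fold). MBD3 was called at all 3 of these TET1 regions.

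Joined over the 4 antibodies, the regions without IAA formed 257 separate loci, of which 200, or 77.8%, were called with 1 antibody alone, beside 66.4% of the 47344 loci of the whole lists. There were 81 loci with CTCF alone, 56 with MBD3 alone, 54 with TET1 alone and 9 with TET2 alone. Another 42 loci had 2 antibodies, 9 had 3 and 6 had all 4. No CTCF was called at 138 loci, or 53.7%, beside 9.33% over the whole lists, and inside PCDH9 this was 59 of 82. MBD3 with TET1 and no CTCF made up 11 loci, 1 of them with TET2 as well. By antibody, 62.2% of its MBD3 regions (51.9% to 71.5%) carried none of the other proteins, beside 35.3% of the MBD3 list. For TET1 it was 52.9% (43.3% to 62.3%), beside 5.94%, for CTCF 68.1% (59.2% to 75.8%), beside 64.4%, and for TET2 37.5% (21.2% to 57.3%), beside 37.9%.

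Away from CTCF, MBD3 and TET1 regions seldom shared bases but often lay near each other. Of the 72 MBD3 regions away from CTCF, 11 carried TET1, or 15.3% (8.75% to 25.3%), close to the 13.9% of the list. From the TET1 side the same comparison gave 11 of 68, or 16.2% (9.28% to 26.7%), beside 28.0%. Yet 38 of these 72 MBD3 summits, or 52.8%, had a TET1 summit within 10 kb, beside 29.3% of such regions in the whole list, and inside PCDH9 it was 22 of 31, or 71.0%. The median distance from an MBD3 summit away from CTCF to the nearest TET1 summit was 3.56 kb inside PCDH9, 7.87 kb in the whole domain and 35.6 kb in the list. Both proteins are also denser here than in their lists, and the part of density in these distances was not tested.

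Inside PCDH9, where they were also denser, the MBD3, TET1 and CTCF regions were closer to their own kind than in the rest of the domain. The median distance from an MBD3 summit to the nearest other was 6.94 kb inside the gene (quartiles 1.22 and 12.8), in the rest of the domain 16.9 kb and in the list 71.6 kb. For TET1 the medians were 7.35, 34.3 and 32.9 kb, and for CTCF 8.79, 26.8 and 15.1 kb. For TET2 they were 36.0, 49.1 and 327 kb, with 9 regions inside the gene. TET2 often lay near MBD3: of the 24 TET2 summits 19, or 79.2%, had an MBD3 summit within 10 kb, beside 43.1% of the TET2 list. For the CTCF summits of the domain this share was also above that of their list, 30.3% beside 15.1%. A TET1 summit lay within 10 kb of all 9 TET2 summits inside PCDH9 and of 6 of 15 in the rest of the domain (40%), beside 52.6% of the TET2 list. Where regions are denser they lie nearer each other, and the part of density in these distances and shares was not tested.

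Overlap between the proteins other than CTCF differed from the lists in both directions. TET1 was at 25 of the 90 MBD3 regions, or 27.8% (19.6% to 37.8%), beside 57.1% of the MBD3 list, and at CTCF it was at 14 of 18, or 77.8% (54.8% to 91.0%), beside 90.5%. MBD3 was at 24.5% of the TET1 regions (17.2% to 33.7%), beside 23.2%, and among the 34 at CTCF at 41.2% (26.4% to 57.8%), beside 22.8%. TET2, the rarest of the 4, was at 12 MBD3 regions, or 13.3% (7.79% to 21.9%), beside 6.33%, and at 10 TET1 regions, or 9.80% (5.41% to 17.1%), beside 2.78%. Split by CTCF, the shares above those of the lists were at CTCF sites, where TET2 was at 6 of 18 MBD3 regions (33.3%, beside 4.08%) and 6 of 34 TET1 regions (17.6%, beside 1.74%). Away from CTCF it was at 6 of 72 MBD3 regions (8.33%, beside 9.23%) and 4 of 68 TET1 regions (5.88%, beside 13.4%). From its own side, TET2 carried MBD3 at 12 of 24 regions (50%, beside 31.6%) and TET1 at 10 of 24 (41.7%, beside 34.3%). Away from CTCF these shares were 33.3% (beside 31.5%) and 22.2% (beside 23.7%).

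Of the domain's 119 CTCF regions, 34 carried TET1, or 28.6% (21.2% to 37.3%), beside 34.4% of the list, and 18 carried MBD3, or 15.1% (9.79% to 22.6%), beside 8.67%. TET2 was at 6 of them, or 5.04% (2.33% to 10.6%), beside 1.10%. Among the 83 CTCF regions of the domain with a fold below the list median of 13.6, 10 carried MBD3, or 12.0% (6.68% to 20.8%), beside 1.81% of such regions in the list. At the 36 stronger ones MBD3 was at 8, or 22.2% (11.7% to 38.1%), beside 15.5%. TET2 was at 5 of the weaker regions, or 6.02% (2.60% to 13.3%), beside 1.73%, and at 1 of the stronger, or 2.78%, beside 0.479%. The domain has fewer of the stronger class, 30.3% (22.7% to 39.0%) beside 50.1%. For TET1 the share was 10.8% (5.81% to 19.3%) at the weaker CTCF regions, beside 6.50%, and 69.4% (53.1% to 82.0%) at the stronger ones, beside 62.0%.

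Where TET1 shared a CTCF region its summit was close to that of CTCF. The median distance between them over 34 regions was 8.50 bp (7.0 bp in the list). Of these regions 30, or 88.2%, were within 50 bp, beside 96.1% of such regions in the list. For the 18 MBD3 regions the median was 29.5 bp (12.0 bp in the list), with 12, or 66.7%, within 50 bp, beside 89.7%. TET2 summits were set apart by a median of 151 bp over 6 regions (75 bp in the list), with 1, or 16.7%, within 50 bp, beside 36.6%.

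All 4 antibodies were called at 6 loci, and they were the same 6 at which TET2 met CTCF, so each TET2 region at CTCF in the domain also carried MBD3 and TET1. These 6 were 5.04% of the CTCF regions (0.315% of the list), 6.67% of the MBD3 regions (1.91%), 5.88% of the TET1 regions (0.819%) and 25% of the TET2 regions (9.43%). Over the whole list 151 of 475 TET2 regions at CTCF carried MBD3, or 31.8%, and 53.3% carried TET1. By CTCF fold the first of the 6 was 68310604 to 68311186, outside the gene, at 38.6-fold, with MBD3 at 8.54-, TET1 at 9.04- and TET2 at 5.78-fold in their own lists. The next, both in PCDH9, were 67501259 to 67501540, with CTCF at 8.10-, MBD3 at 5.18-, TET1 at 3.70- and TET2 at 3.55-fold, and 67409293 to 67409788, with CTCF at 7.43-, MBD3 at 7.65-, TET1 at 5.00- and TET2 at 5.55-fold. The last of these has the strongest TET2 region inside the gene, ranked 330 of 1326.

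The other 3 loci with all 4 antibodies combined weak CTCF with strong MBD3 or TET2. At 65214010 to 65214404 the CTCF fold was 5.23, while the MBD3 region there, at 12.8-fold, was the strongest MBD3 region of the domain and ranked 17 of 6608. At 63865904 to 63866085 CTCF stood at 6.60-fold, with MBD3 at 10.1-fold (rank 137) and TET2 at 8.81-fold, rank 41 of 1326 and the strongest TET2 region of the domain. At 65297930 to 65298253 CTCF was at 3.44-fold, with TET2 at 8.39-fold, rank 50. In 5 of the 6 loci CTCF was below the median fold of its list. Over the whole list, too, most CTCF regions with TET2 were weak: 371 lay below the median fold and 103 at or above it.

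By fold, the regions of the domain were weak within their lists for TET1 and CTCF, and nearer the middle for MBD3 and TET2. Strength was read as the percentile of fold within the list, where 50 is the middle. The median percentile of the TET1 regions was 13.5 (95% order-statistic interval 11.2 to 16.9), and 32 of 102, or 31.4%, fell in the weakest 10% of the list, which by rank holds 9.97% of it. For CTCF the median percentile was 32.2 (20.7 to 43.0), with 37 of 119, or 31.1%, in that weakest class (10.0% of the list). For MBD3 it was 40.5 (29.1 to 48.6), with 11 of 90 in that class, or 12.2%, beside 9.99%, and for TET2 48.2 (34.6 to 69.5), with 0 of 24 (up to 13.8%), beside 9.73%. By −log10 q in place of fold the order was another: the median percentile was 31.5 for TET2, 31.9 for CTCF, 34.7 for MBD3 and 8.96 for TET1. The strongest 10% of each list took 8.40% of the CTCF regions of the domain (10.0% of the list), 8.89% of the MBD3 regions (10.0%), 1.96% of the TET1 regions (9.98%) and 12.5% of the TET2 regions (9.88%).

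Inside PCDH9 each of these medians was lower than in the rest of the domain. The median percentile was 9.47 (4.39 to 34.4) inside and 33.9 (23 to 45.8) outside for CTCF, 10.7 (7.12 to 14.6) and 15.8 (12.2 to 20.0) for TET1, 32.9 (21.4 to 49.6) and 46.3 (26 to 54.4) for MBD3, and 44.8 (27.4 to 53.5) and 58.1 (32.2 to 77.7) for TET2. Inside and outside, the intervals of an antibody overlap for all 4. By −log10 q the medians inside and outside were 18.4 and 53.1 for TET2, 6.88 and 36.4 for CTCF, 23.2 and 39.3 for MBD3, and 6.84 and 10.3 for TET1. Fold enrichment ran from 3.08 to 10.1 for MBD3 inside the gene (median 4.80), from 3.27 to 10.4 for TET1 (4.26), from 3.55 to 5.55 for TET2 (4.49) and from 3.19 to 36.9 for CTCF (4.90). Outside the gene the strongest regions were stronger, with CTCF at 68.5-fold at 62932252 to 62932665 (rank 136 of 42925), where TET1 also had its strongest region of the domain, at 16.2-fold.

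**Figure D5:**
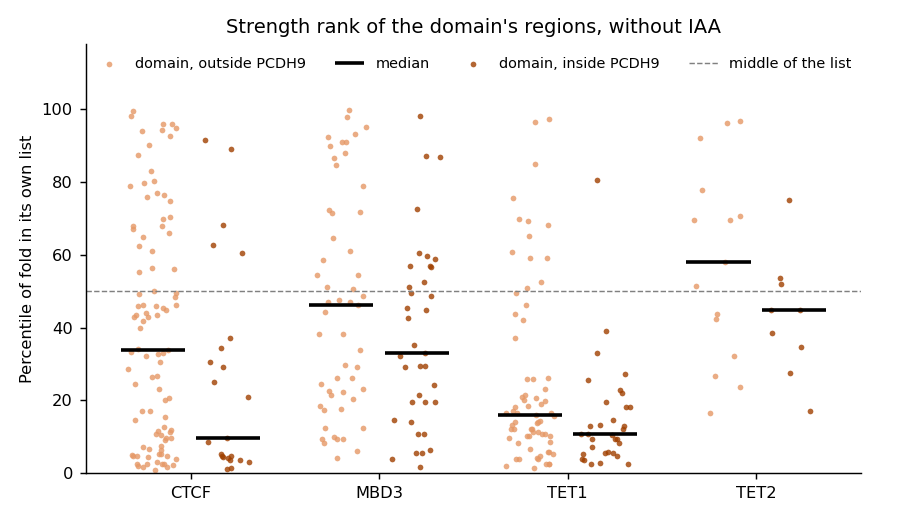
Percentile of fold within its own list (vertical axis, 0 weakest and 100 strongest) for each region of the domain without IAA, outside (light) and inside (dark) PCDH9; black lines are medians and the dashed line the middle of the list. TET1 points crowd near the bottom, with medians of 15.8 outside and 10.7 inside, while the TET2 medians, 58.1 and 44.8, lie on either side of the middle.

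For TET1 and MBD3, regions away from CTCF made up much of the weak end. In the domain the median percentile of TET1 regions was 43.0 (21.3 to 59.1) at CTCF and 10.7 (9.28 to 12.2) away from it, beside 54.4 and 10.4 in the list. The interval of the TET1 regions away from CTCF takes in the value of their list. For MBD3 the medians were 83.0 (50.6 to 91.0) at CTCF and 29.6 (22.5 to 45.5) away, beside 62.0 and 37.5. The extra CTCF regions of PCDH9 were mainly weak ones as well: those below the list median fold numbered 18 inside the gene, 19.6 per Mb beside 7.16 outside, a ratio of 2.73, and those at or above it 5, or 5.43 per Mb beside 3.41, a ratio of 1.59.

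With IAA the CTCF list as a whole went from 42925 regions to 63, and none of the domain's 119 CTCF regions was called again. The same held for its 90 MBD3, 102 TET1 and 24 TET2 regions, a count of 0 that allows shares of up to 3.13% for CTCF, 4.09% for MBD3, 3.63% for TET1 and 13.8% for TET2 (upper Wilson bound). In the lists, 0.126% of CTCF, 0.182% of MBD3, 0.222% of TET1 and 0.452% of TET2 regions were kept. At those shares 0.648 kept regions would be counted among the 335, so the 0 says nothing particular about the domain. None of the 335 met a region of any antibody with IAA either, which in the lists happened to 0.294% of CTCF, 0.938% of MBD3, 0.628% of TET1 and 1.96% of TET2 regions. Regions inside and outside PCDH9, at CTCF and away from it, could not be set apart, since no class kept a region. The loss was not tested across cultures, because each condition has 1 pooled list.

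The 6 regions called in the domain with IAA were all at new positions. MBD3 had 1, at 65053647 to 65053809, at 5.24-fold, rank 8 of 50 in its list, and the nearest region of cells without IAA was a CTCF region 7.27 kb away. TET2 had 5, or 0.165% of its 3022 regions, where without IAA the domain had 1.81% of 1326. They lay at 61238032 to 61238185 (3.82-fold), 65021602 to 65021749 (5.76-fold), 66739418 to 66739597 (5.06-fold), 67331188 to 67331344 (3.97-fold) and 68388152 to 68388295 (7.24-fold). The fourth of these was in PCDH9, 77.9 kb from the nearest earlier TET2 region. The second lay 0.755 kb from an earlier CTCF region, and the others were 5.42 to 23.7 kb from the nearest earlier region of any antibody. CTCF and TET1 had no region in the domain with IAA, out of 63 and 325 in their whole lists with IAA. Without IAA the domain held 0.277% of the CTCF list and 0.628% of the TET1 list. Whether a count of 0 in such short lists is particular to the domain was not tested. The TET2 list grew from 1326 to 3022 regions between the conditions while its count in the domain went from 24 to 5, and in PCDH9 from 9 to 1.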

How the data were processed

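HEK293T cells without IAA or after 72 h in 0.5 mM IAA gave 30 ChIP-seq and input samples, grouped by their titles. The authors deposited 8 narrowPeak lists, 1 for each antibody and condition, with the 3 samples pooled, per the peak names in the files. The submitters' processing notes name hg19, MACS2 2.1.2, Bowtie2 2.3.4, bedtools 2.25.0, SAMtools 1.9 and FastQC 0.11.7, without their roles. The control used for a list is not stated. Fold enrichment is a ratio from the authors' peak caller, and −log10 q was also used as deposited. The highest q was 0.050. Both describe a region within 1 list only. The number of reads is unknown.

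Overlapping rows were joined (highest fold and −log10 q kept, and the summit from the row of highest −log10 q). Sharing meant 1 bp in common. Positions are hg19, counted from 1. Wilson 95% intervals, and binomial order-statistic intervals of medians, cover counting error over regions, which are positions and not replicates. Named regions were the strongest by antibody and place, those with all 4 antibodies, those with IAA and the CTCF regions nearest the ends of PCDH9. Members, lists and comparisons were chosen with earlier results of these data known. Alternatives are given in the closing section. No sequence is printed, since the hg19 genome was not used here. The joining and overlap steps were tested on simulated data, with Python 3.11.15, pandas 2.3.3 and scipy 1.17.1.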

Additional observations from a re-analysis of the deposited data

How the results depend on the processing

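Of 76 alternatives set out for these results, 46 left the value about where it was and 30 moved it. Single rows, summits within 200 bp and 100 kb added to PCDH9 moved none of the results they were tried on. Thresholds were set on all lists, CTCF included. A minimum −log10 q of 5 left 11 CTCF, 9 MBD3, 6 TET1 and 1 TET2 regions in PCDH9, and 29 MBD3, 33 TET1 and 4 TET2 regions in the domain. With IAA it left 0 MBD3 and 1 TET2 region. The share away from CTCF was then 58.6% for MBD3, 21.2% for TET1 and 50% for TET2, and the median percentile 59.5, 34.6 and 83.4. A minimum fold of 5 left 11 CTCF, 17 MBD3, 8 TET1 and 1 TET2 regions in PCDH9, 47 MBD3, 35 TET1 and 8 TET2 regions in the domain, and 3 TET2 regions with IAA. The shares away from CTCF were then 31.4% for TET1 and 50% for TET2, and the TET1 percentile 28.2. An overlap of 50% of both regions put 90% of MBD3 and 77.5% of TET1 away from CTCF, beside 75.1% and 32.8% of the lists. Ranked by −log10 q the median percentile was 8.96 for TET1 and 31.5 for TET2. For TET2 the share away from CTCF lay above that of its list as reported but below it under both minimums (74.5% and 81.6% of the list) and under the 50% overlap (75% in the domain, 79.6% of the list). No region was kept with IAA under any alternative tried. With the CTCF list left whole, the shares away from CTCF were 51.7% for MBD3, 15.2% for TET1 and 25% for TET2 at the minimum −log10 q, and 68.1%, 25.7% and 37.5% at the minimum fold. These shares and the ranks among windows under stricter thresholds were added after the data were seen. No paired analysis was possible because each list pools the 3 numbered samples of its group, and for the same reason no sample could be left out.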

Other observations

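The next 10 Mb of chromosome 13, from 70 to 80 Mb, held fewer MBD3, TET1 and TET2 regions than the domain but more CTCF regions. There were 69 MBD3 regions, 44 of them away from CTCF, 75 TET1 regions with 29 away, 15 TET2 regions with 11 away, and 135 CTCF regions beside 119 in the domain. For MBD3 both its count and its count away from CTCF came directly after those of the domain. The MBD3 regions did not run on from one stretch to the other, since the last of the domain lay 1041 kb below 70 Mb and the first beyond it, at 70139455 to 70139930, lay 139 kb above, at 9.65-fold.

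Below the domain the MBD3 and TET2 lists were empty for longer. The nearest MBD3 region below 60 Mb was 4683 kb away and the nearest TET2 region 7640 kb away, while the first of each inside the domain began 2518 kb above its start. CTCF was called 34.2 kb below and 252 kb above that edge, at 59965819 to 59966058 (13.8-fold) and 60252422 to 60252672 (20.7-fold). At the other edge CTCF regions lay at 69898226 to 69898550 (27.2-fold), just inside, and at 70098635 to 70098948 (11.6-fold), just outside.

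The 1 Mb at 82 to 83 Mb of chromosome 9 was the only other bin with 9 TET2 regions, and also came second for MBD3, with 20. It was not described further.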
